A study of Mus musculus with 4 samples.

Results

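Where annotated genes overlap on the mouse genome, a fragment of RNA cannot be given to one of them by its place alone, and the deposited counts therefore join such genes in 1 row whose name holds both identifiers. The exon segments and splice junctions of these merged rows are described here, in testis cells of 20 dpp (days post partum) mice with and without TDRD6. The paper reports that bead preparations of this kind held mostly diplotene spermatocytes. It also counted secondary spermatocytes and round spermatids in them. Of 37718 gene rows in the counts, 940 were merged rows. Their members were every exon segment (E), annotated junction (J) and unannotated junction (N) with at least 10 counts summed over the 4 samples, and were thus chosen by their own counts and by the row name, with no regard to genotype. This gave 25897 members of 351964 features in all rows that reach the same minimum, namely 17888 exon segments, 7750 annotated junctions and 259 unannotated junctions. They lay in 747 of the merged rows and made up 62.1% of the 41694 features listed there, of which 7988 had no count in any sample. At the edge of the rule stood 425 members with 10 counts, and 478 features with 9 counts were just outside it. The summed count of a member had a median of 177 and quartiles of 44 and 683.

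The samples were 2 pools of Tdrd6+/- cells and 2 pools of Tdrd6-/- cells. Each pool came from at least 4 mice of 20 dpp, and cells were isolated with magnetic beads by human CD4 (hCD4), a surface marker that both genotypes express from the endogenous Tdrd6 promoter. The Tdrd6+/- cells thus carry 1 disrupted allele and are no wild type. Nothing in the sources says more on how the pools of a genotype were kept apart, so a p value measures the spread between pools only. RNA was freed of ribosomal RNA with Ribo-Zero and sequenced from a directional library.

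TDRD6 is a germ cell protein with Tudor domains, which bind methylated arginines, and was examined in this study for its part in spliceosome maturation. Overlapping genes are common in mammals and are of several kinds. Small RNA genes often lie in the introns of a host gene and are cut from its intron, snoRNAs from introns of non-coding host genes among them, and neighbouring coding genes can share exons through read-through transcripts. Usage, the measure followed below, is the count of an exon segment or junction as a percent of the gene-level count of its row. In a merged row a change in the level of one gene against its partner and a change of exon choice within one gene both move usage, and the test cannot tell them apart.

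The 940 merged rows joined 2146 genes, with 769 rows of 2 genes, 127 of 3, 24 of 4, 9 of 5 and a largest row of 10. The GENCODE M21 annotation of mm10 holds 1933 of these genes, and strands were read from these alone. They lay on 1 strand in 931 rows, 480 on the plus and 451 on the minus strand, and on both strands in 4 rows. By kind, 281 rows held at least 2 protein-coding genes, 234 a protein-coding gene and a small RNA gene, 84 a protein-coding gene and another non-coding gene, and 142 no protein-coding gene. The other 199 rows held a gene that M21 lacks, and the strand of that gene is not known here. Positions below are given only for 424 rows whose numbers of exon segments and junctions equal those of M21 after its exons are cut at every boundary. There the count of an annotated junction was at or below that of both flanking segments for 3327 of 3340 junctions, against 1572 when the segments were numbered in reverse.

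The sequences that carry the named findings are shown first. Among junctions with a changed usage, 5 could be placed, and the last 15 bases of the exon before and the first 15 bases of the exon after are joined below, with the 3 bases on either side of the joint in capitals. In GENCODE M21 they belong to Dnaja1 (plus strand, exon ends at 40722633 and the next starts at 40723703 on chromosome 4), Stmn1 (plus, 134470839 and 134472804 on chromosome 4), Rpl24 (plus, 55970175 and 55971311 on chromosome 16) and, with coordinates in chromosome order, Ep400 (minus, 110701790 and 110703452 for J113, 110708943 and 110711031 for J118, on chromosome 5).
Dnaja1 J034: ccggcccgctcaCCGGCTgtaaaaaatggt
Stmn1 J022: gaagaaagacgcAAGTCTcatgaggcggaa
Rpl24 J031: atggctgctgccAAGGCCcccacaaaggca
Ep400 J113: gctcaaggccagCAGGTTatttcagcctgt
Ep400 J118: aaagcaaagagaCAGGAGtggaccgagccc

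The row of Rcc1, Snora73a and Snhg3 held the segment with the smallest adjusted p of all members, and 4 of its changed segments are shown because they moved in opposite directions. All are 5′ to 3′ on the minus strand of chromosome 4. E035 (chr4:132352934-132352979) and E034 (chr4:132352775-132352933) lie in Snora73a, and the ACA in capitals in E034 stands 3 bases before the end of the snoRNA, where this class of snoRNA carries an ACA box. An ACA at that place was found in 276 of 1507 annotated snoRNA transcripts (18.3%). E028 (chr4:132352004-132352121) and E027 (chr4:132351934-132352003) adjoin each other in Snhg3, and the ATTAAA in capitals in E027, a variant of the polyadenylation hexamer, ends 13 bases before the end of the segment. The same letters were in the last 70 bases of 9.85% of 134498 transcripts of at least 200 bases, searched on the transcript strand only. Such matches describe the letters of these segments and no more.
Snora73a E035: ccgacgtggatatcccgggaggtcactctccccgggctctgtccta
Snora73a E034: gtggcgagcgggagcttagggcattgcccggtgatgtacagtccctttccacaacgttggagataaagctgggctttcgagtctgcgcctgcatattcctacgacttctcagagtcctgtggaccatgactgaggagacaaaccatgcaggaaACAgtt
Snhg3 E028: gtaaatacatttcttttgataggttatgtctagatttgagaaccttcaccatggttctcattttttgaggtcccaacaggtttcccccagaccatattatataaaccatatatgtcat
Snhg3 E027: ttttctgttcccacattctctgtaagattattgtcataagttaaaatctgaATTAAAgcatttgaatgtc

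The merged rows joined 269 miRNA genes, and RefSeq gave a mature sequence for 181 of them. Those of the Dnaja1 and Ppp1r10 rows, which held a called member, and of the Nrd1 row, which changed at the gene level, are printed with the seed, bases 2 to 8, in capitals. None of the 4 shares its seed with another.
miR-761 of the Nrd1 row: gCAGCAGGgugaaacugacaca
miR-207 of the Dnaja1 row: gCUUCUCCuggcucuccucccuc
miR-1894-3p of the Ppp1r10 row: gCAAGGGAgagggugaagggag
miR-1894-5p of the Ppp1r10 row: cUCUCCCCuaccaccugccucu

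The libraries held 26454326 to 31388750 gene-level counts each. Tdrd6 itself, which checks the labels, had 33220 and 39322 counts in Tdrd6+/- and 359 and 400 in Tdrd6-/- samples. Replicates of a genotype correlated at 0.991 and 0.993 across genes (Pearson, log2 CPM, rows with a mean of at least 50 counts). All 12 markers of diplotene and late pachytene spermatocytes, Tdrd6 among them, were at 1 CPM (count scaled to a common library size, TMM) or more. They summed to 8512 and 9166 CPM in Tdrd6+/- and to 7673 and 8849 CPM in Tdrd6-/- samples. Tdrd6 itself gave 1269 and 1412 against 11.4 and 12.5 CPM of these sums. In the gene-level test given below, Tdrd6 and Piwil1 were called lower and Sycp1 higher, beside 3.78% and 1.02% of all rows. The 9 round spermatid markers found, of 10 listed, summed to 11.8 and 15.4 CPM in Tdrd6+/- and to 25.8 and 23.0 CPM in Tdrd6-/- samples. Of these markers 3 were at 1 CPM or more, and of the 4 tested 2 were called higher. The 10 Sertoli cell markers summed to 89.3 and 89.7 against 106 and 113 CPM, and none was called.

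Merged rows took 7.30% and 7.32% of all gene-level counts in Tdrd6+/- and 7.26% and 7.08% in Tdrd6-/- samples. The means were 7.31% ± 0.0134 and 7.17% ± 0.125 (SD, n = 2 each), a difference of -0.138 percentage points (two-sided exact permutation test p = 0.33, the smallest p that 2 samples against 2 allow). The values of the genotypes did not overlap. Junction counts per 100 exon segment counts in merged rows were 25.7 and 26.6 in Tdrd6+/- and 26.7 and 26.4 in Tdrd6-/- samples, and these overlapped. Unannotated junctions made up 0.995% and 0.980% of the junction counts of merged rows in Tdrd6+/- and 0.960% and 0.991% in Tdrd6-/- samples, which overlapped as well.

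Usage changed in few members. Of 11520 members that passed the filter on the mean count, 69 in 25 rows passed the threshold used throughout, an FDR (false discovery rate) of 0.1, in the likelihood ratio test (DESeq2, Benjamini-Hochberg over the whole table), or 0.599%. Over all 154074 features tested, 0.264% were called, 0.171% with higher and 0.0935% with lower usage in Tdrd6-/-, and outside merged rows 338 of 142554 were called (0.237%). Among the members 38 were higher (31 exon segments, 6 annotated junctions and 1 unannotated junction) and 31 lower (29 exon segments and 2 annotated junctions). The absolute log2 change of the called members ran from 0.41 to 1.66 with a median of 0.63, and the median change of all tested members was 0.01, beside 0.02 over all features. A fragment counts on every segment it covers, so neighbouring segments of a row share counts and are not independent calls. A single row, that of Ep400, gave 18 of the calls, and without it 51 members were called (35 higher and 16 lower), 0.447% of those tested.

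The count of calls rested on the dispersion model and on single libraries. A dispersion trend over the mean of the feature and the rest of its row, in place of the feature's own mean, left 5 of the 69, namely E027 and E028 of the Rcc1, Snora73a and Snhg3 row, E003 of D5Ertd579e and Tbc1d14, E016 of Tmem38b and N039 of Pcbp2, and it called 65 features of the whole table. All other members named below were not called with that trend. Leaving out Tdrd6-/- replicate 2 also gave 5 calls, and leaving out Tdrd6-/- replicate 1 gave 48. Of the Tdrd6+/- samples, dropping replicate 1 gave 26 calls and dropping replicate 2 gave 111. In 60 of the 69 called members, Tdrd6-/- replicate 2 lay farther from the Tdrd6+/- mean than replicate 1. Of the 16 members chosen for refits by their adjusted p, 12 lost the call without Tdrd6-/- replicate 2, and 3 of the 16 (Snhg3 E028, D5Ertd579e and Tbc1d14 E003 and Tmem38b E016) kept it whichever library was dropped. The edgeR quasi-likelihood test of the same model called 101 members, 56 of them shared with the 69.

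**Figure D1:**
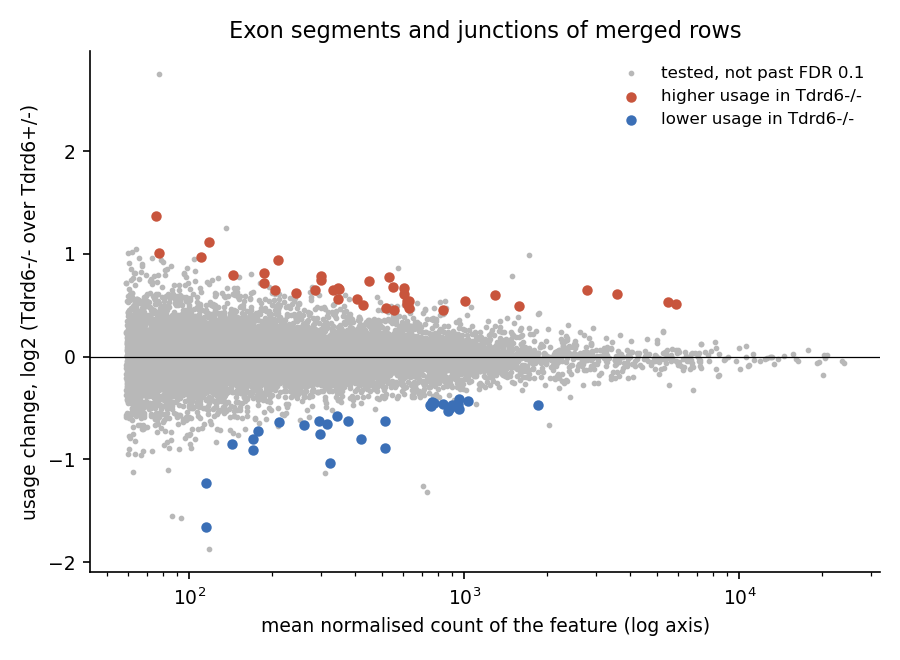
Usage change of the 11520 tested members, as log2 of Tdrd6-/- over Tdrd6+/-, against the mean normalised count of the feature on a log axis. The 38 members with higher usage (red) and the 31 with lower usage (blue) at FDR 0.1 lie among grey points centred near 0.

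The Rcc1, Snora73a and Snhg3 row combined a coding gene, a snoRNA and the host transcript of that snoRNA. RCC1 is the exchange factor of the GTPase Ran on chromatin, SNORA73A is a box H/ACA snoRNA with a part in ribosomal RNA processing, and Snhg3 is a non-coding host gene that lies in the first part of the Rcc1 gene. Segment E028 of Snhg3 had 453 and 350 counts in Tdrd6+/- and 226 and 233 in Tdrd6-/- samples. Its usage was 13.8% and 11.9% against 6.83% and 6.59%, or 12.9% ± 1.33 and 6.71% ± 0.163 (SD, n = 2), and both Tdrd6-/- samples were lower (log2 change -1.04 ± 0.16 SE, adjusted p = 3.37e-07, DESeq2). Its neighbour E027 fell from 178 and 124 to 75 and 69 counts (log2 change -1.23 ± 0.24, adjusted p = 0.000589), and E029 on the other side fell from 18.9% and 18.2% to 13.0% and 12.7% of the row (-0.63 ± 0.13, adjusted p = 0.00264). These 3 segments adjoin each other, and the last exon of 4 of the 5 annotated Snhg3 transcripts lies within their span.

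The snoRNA segments of the row moved the other way. E035, which belongs to Snora73a alone, had 520 and 333 counts in Tdrd6+/- and 650 and 723 in Tdrd6-/- samples. Its usage rose from 13.6% ± 3.18 to 20.0% ± 0.589 (SD, n = 2; log2 change 0.68 ± 0.16, adjusted p = 0.0181), with no overlap, although the Tdrd6+/- samples stood apart at 15.8% and 11.3%. Without Tdrd6+/- replicate 2 the log2 change of E035 was 0.42 (adjusted p = 0.461, DESeq2), and the call was also lost without either Tdrd6-/- replicate (adjusted p = 0.338 and 1). E034, shared by Snora73a and Snhg3, rose by a log2 change of 0.67 ± 0.16 (adjusted p = 0.0271). Snora73b, a copy that differs from Snora73a at 7 of 205 bases, lies between the Snora73a segments and E029 (chr4:132352322-132352526) and has a row of its own, so reads may be split between the copies and the counts of both are uncertain. Snora73b had 346 and 331 counts in Tdrd6+/- and 406 and 393 in Tdrd6-/- samples (12.5 ± 0.941 and 12.6 ± 0.396 CPM, SD, n = 2; log2 0.00, adjusted p = 0.999, edgeR). The row as a whole did not pass the gene-level test, at 115 ± 14.1 CPM in Tdrd6+/- and 108 ± 4.02 CPM in Tdrd6-/- samples (log2 -0.10, adjusted p = 0.826, edgeR). Summed over segments that M21 gives to 1 gene only, Rcc1 held 44.4% and 48.7% of the row's segment counts in Tdrd6+/- and 46.5% and 47.1% in Tdrd6-/- samples, which overlapped. Snhg3 held 32.9% and 32.1% against 26.3% and 25.3%, and Snora73a 7.65% and 5.59% against 9.81% and 10.2%, neither with overlap. The value of Snora73a is that of E035 alone, and that of Snhg3 holds the called segments E027, E028 and E029. These 2 shares thus restate the calls and are no separate test.

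**Figure D2:**
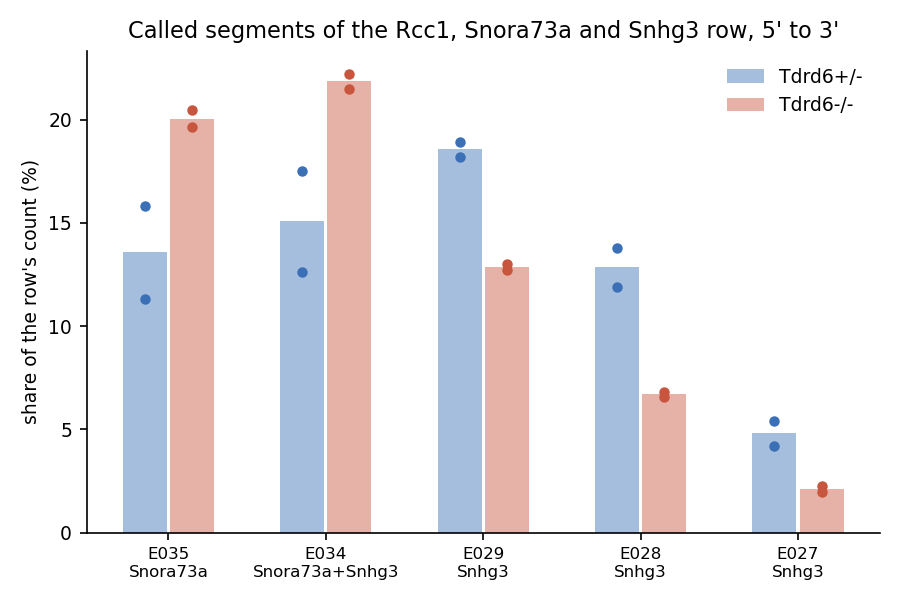
Share of the row's count (percent) on the 5 called segments of the Rcc1, Snora73a and Snhg3 row, ordered from 5′ to 3′, with a bar for the mean of 2 samples and a point for each sample. The snoRNA segments E035 and E034 are higher and the Snhg3 segments E029, E028 and E027 lower in the Tdrd6-/- samples.

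The row of Ep400 and the snoRNA gene Gm26079 (minus strand of chromosome 5) held the most called members. EP400 is a chromatin remodelling ATPase that exchanges histone variants. Its row was lower as a whole, with 1149 and 1284 CPM in Tdrd6+/- and 832 and 758 CPM in Tdrd6-/- samples (log2 -0.61 ± 0.13, adjusted p = 0.00958, edgeR). Segment E072, the 7th of 78 from the 5′ end (chr5:110755397-110756431), carried 4670 and 6138 counts in Tdrd6+/- and 5592 and 5549 in Tdrd6-/- samples. Its usage was 15.5% and 17.2% against 21.2% and 22.9% (log2 change 0.54 ± 0.10, adjusted p = 0.000297). E068 and E071 nearby were also higher, E068 at 4.21% and 5.12% against 6.40% and 6.42%. By contrast 13 segments between the 22nd and the 48th place were lower, as were junctions J113 and J118, printed above. The lowest adjusted p among these was that of E040, the 39th segment (chr5:110695273-110695538), with 3.60% and 3.17% in Tdrd6+/- and 2.38% and 2.35% in Tdrd6-/- samples (log2 change -0.53 ± 0.12, adjusted p = 0.00958). Over the first quintile of the row (segments in their order from the 5′ end, cut into 5 equal parts), 10 of 12 tested segments had a positive log2 change, with a median of 0.39, and over the rest 16 of 57 did, with a median of -0.31. Segments of Gm26079 alone held 13 and 19 counts in Tdrd6+/- and 9 and 11 in Tdrd6-/- samples, so nearly all counts of the row are those of Ep400.

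D5Ertd579e and Tbc1d14 are neighbouring genes on the minus strand of chromosome 5 (chr5:36600485-36696024 and chr5:36490604-36593276 in M21), with D5Ertd579e on the 5′ side. TBC1D14 is a Rab-binding protein with a part in autophagy. Their row had 111 and 111 CPM in Tdrd6+/- and 74.2 and 61.5 CPM in Tdrd6-/- samples (log2 -0.71 ± 0.14, adjusted p = 0.00429, edgeR). All 6 tested segments of its first quintile had a log2 usage change between 0.74 and 0.94, and all 16 of the rest one between -1.12 and -0.41. E074, the 11th of 84, had 515 and 500 counts in Tdrd6+/- and 575 and 537 in Tdrd6-/- samples, and its usage rose from 17.7% and 16.1% to 24.5% and 27.3% (log2 change 0.78 ± 0.14, adjusted p = 6.26e-05). E003, the 82nd, had 638 and 755 against 322 and 279 counts, and its usage fell from 21.9% and 24.3% to 13.7% and 14.2% (log2 change -0.89 ± 0.14, adjusted p = 9.67e-07). The first quintile took 28.5% and 23.2% of the row's exon counts in Tdrd6+/- and 45.2% and 46.9% in Tdrd6-/- samples. Segments of this row could not be placed in M21, so which gene each belongs to is known only from its order. Intron counts, which name the genes one by one, were 3418 and 3447 against 2644 and 1716 for Tbc1d14 (log2 -0.61, adjusted p = 0.145, edgeR) and 1408 and 1309 against 1683 and 1049 for D5Ertd579e (log2 0.05, adjusted p = 0.942), and those of D5Ertd579e overlapped.

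**Figure D3:**
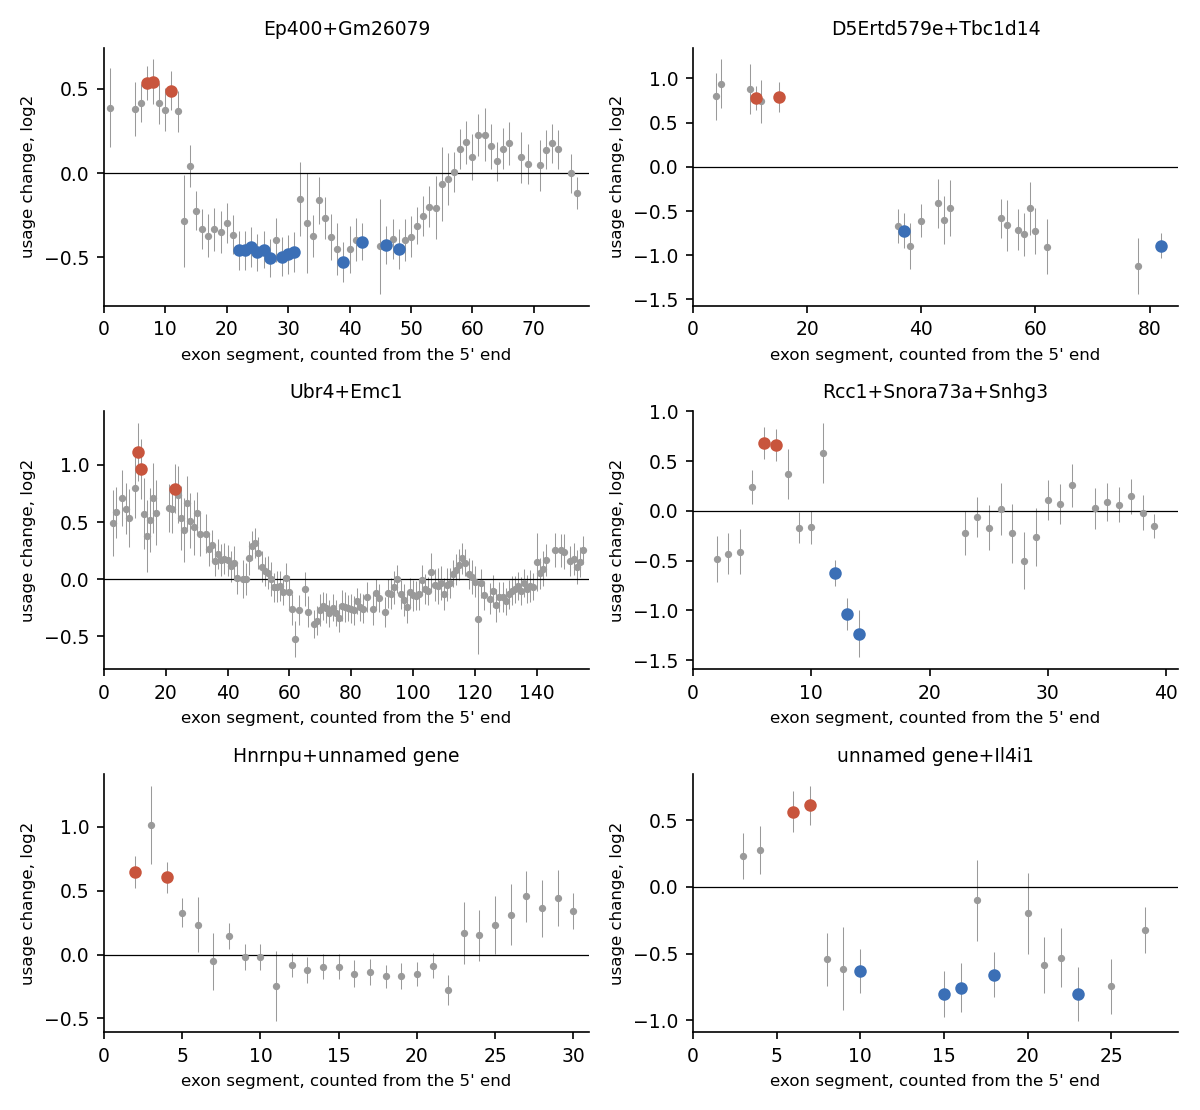
Usage change (log2, Tdrd6-/- over Tdrd6+/-, error bars are SE) of each tested exon segment against its place from the 5′ end in 6 merged rows, with segments past FDR 0.1 in red (higher) or blue (lower). In the D5Ertd579e and Tbc1d14 panel the first segments lie above 0 and all later ones below it, and in the Ubr4 and Emc1 panel the first 24 tested segments lie above 0.

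Higher usage in Tdrd6-/- samples was seen in the rows of Pcbp2 and Hnrnpu. In the row of Pcbp2, which encodes a poly(C)-binding protein that acts on mRNA stability and translation, the unannotated junction N039 had 59 and 68 counts in Tdrd6+/- and 95 and 83 in Tdrd6-/- samples. This was 0.678% ± 0.0151 against 1.73% ± 0.126 of the row (SD, n = 2; log2 change 1.37 ± 0.26, adjusted p = 0.000341), while the row itself fell from 327 and 366 to 165 and 158 CPM (log2 -1.10 ± 0.13, adjusted p = 3.14e-05, edgeR). N039 was the only unannotated junction called of 42 tested. Hnrnpu, which encodes a nuclear RNA-binding protein of pre-mRNA processing, is joined with a gene that M21 lacks, in a row that was also called lower at the gene level. Its junction J047 had 504 and 544 counts against 756 and 636, and usage of 1.79% and 1.83% against 2.78% and 2.68% (log2 change 0.61 ± 0.12, adjusted p = 0.000589). Junction J048 and segments E029 and E027 of that row were also higher, and all 5 tested segments of its first quintile had a positive change.

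UBR4, an E3 ubiquitin ligase of the N-degron pathway, shares a row with Emc1, a subunit of the ER membrane complex. Both lie on the plus strand of chromosome 4 in M21, Ubr4 at chr4:139352609-139489588 and Emc1 at chr4:139352587-139378730. Emc1 thus overlaps the 5′ part of Ubr4. Segments of this row could not be placed in M21, so which of the genes each belongs to is not known. In segment E011, the 11th of 156, usage was 0.336% and 0.253% in Tdrd6+/- and 0.497% and 0.788% in Tdrd6-/- samples (log2 change 1.11 ± 0.26, adjusted p = 0.0151). All 24 tested segments of the first quintile had a positive change, between 0.38 and 1.11, and 3 of them were called. The 113 tested segments of the rest had a median of -0.06 and no call. The row fell from 1125 and 1278 CPM to 795 and 654 CPM (log2 -0.73 ± 0.14, adjusted p = 0.0031, edgeR). In the row of C530008M17Rik, usage of E019 rose from 1.45% and 1.60% to 2.44% and 3.42% (log2 change 0.94 ± 0.19, adjusted p = 0.00257). Its counts were 182 and 245 in Tdrd6+/- and 199 and 214 in Tdrd6-/- samples. Those of the whole row fell from 12587 and 15269 to 8163 and 6264. In the row of Ppp1r10, a nuclear regulatory subunit of protein phosphatase 1, E008 (chr17:35917198-35917340) rose from 8.29% and 9.66% to 12.7% and 14.5% (log2 change 0.67 ± 0.16, adjusted p = 0.0184), with 240 and 319 counts against 403 and 450. None of these usage values overlapped between genotypes.

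The 3 called annotated junctions outside the Ep400, Hnrnpu and Sbno1 rows all had higher usage. Dnaja1 encodes a co-chaperone of Hsp70, and its junction J034 spans an intron of 1069 bases in which Mir207 lies (chr4:40722917-40722995). J034 had 222 and 213 counts in Tdrd6+/- and 363 and 362 in Tdrd6-/- samples, or 7.77% ± 0.0742 and 11.7% ± 0.129 of the row (SD, n = 2; log2 change 0.65 ± 0.15, adjusted p = 0.0185). The segment of Mir207 had 4 and 3 against 7 and 6 counts, too few for a test. In Stmn1, which encodes the microtubule destabilizer stathmin, J022 went from 18.3% and 22.6% to 26.6% and 27.7% (log2 change 0.54, adjusted p = 0.0509). J031 of Rpl24, a protein of the large ribosomal subunit, went from 4.76% and 5.25% to 6.90% and 8.11% in a row shared with Zbtb11 (log2 change 0.62, adjusted p = 0.0875).

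Lower usage was seen at segments of several unrelated rows. The largest change of all called members was that of E016 in the row of Tmem38b, a cation channel of the endoplasmic reticulum, joined with the 5S rRNA gene n-R5s185. This segment, the last of 16 (chr4:53860771-53862019, in Tmem38b), had 198 and 134 counts in Tdrd6+/- and 57 and 52 in Tdrd6-/- samples. Its usage was 15.4% and 11.2% against 5.25% and 4.04% (log2 change -1.66 ± 0.26, adjusted p = 1.14e-06). Il4i1, which encodes an amino acid oxidase, is joined with ENSMUSG00000043858, for which M21 has no entry. There E015 fell from 8.21% and 10.4% to 6.44% and 4.71% (log2 change -0.80 ± 0.17, adjusted p = 0.0049), one of 5 lower segments, while E006 and E007 were higher, the latter at 63.6% and 57.9% against 66.8% and 73.7%. E016 of the Strada row (chr11:106184620-106186443), Strada being a pseudokinase that activates STK11, fell from 2.83% and 2.72% to 1.84% and 1.19% (log2 change -0.91 ± 0.22, adjusted p = 0.0239). E018 in the row of ENSMUSG00000026464 and Gm38394 went from 43.8% and 39.6% to 35.3% and 32.8% (adjusted p = 0.0396). In the row of Cmtm2a, of the MARVEL domain family, and Gm45711, E013 went from 0.742% and 0.939% to 0.452% and 0.488% (adjusted p = 0.0406).

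Some further calls lay in rows described above. E002 of Pcbp2 was higher, at 10.8% and 13.3% against 16.4% and 16.7%, as were E009 of Ppp1r10, at 17.1% ± 1.58 against 22.7% ± 1.26 (SD, n = 2), and E070 of D5Ertd579e and Tbc1d14, at 10.6% and 8.09% against 14.4% and 15.8%. E048 of the latter row was lower, at 7.31% and 8.48% against 4.86% and 5.03%, and so was E015 of Cmtm2a and Gm45711, at 1.19% ± 0.0623 against 0.771% ± 0.0302. The other calls were spread over 9 further rows. Adnp (with Dpm1), Sbno1 and Ipo4 (with Tm9sf1) had 3 higher members each, and Trim17 (with Hist3h2a), Glcci1, Dnhd1, Map4 and Smad5 had 1 each. E001 of the Trim17 row took 79.5% and 78.2% of the row in Tdrd6+/- and 82.0% and 86.2% in Tdrd6-/- samples. E010 of Smad5, a transducer of BMP signals, rose from 3.41% and 4.04% to 6.32% and 8.12% (log2 change 1.01, adjusted p = 0.0961). In the row of Psmd1, a subunit of the proteasome, E080 was lower at 3.20% and 3.35% against 2.39% and 1.82%.

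By kind of row, members were called in 11 rows with at least 2 protein-coding genes (15 higher and 6 lower of 4846 tested, 0.433%) and in 8 rows with a protein-coding and a small RNA gene (13 higher and 16 lower of 4059, 0.714%), beside 0.264% of all features. Ep400 alone gave 3 of these 13 and 15 of these 16, and without it the second class had 10 higher and 1 lower of 3936 (0.279%). Rows with a gene that M21 lacks had the highest share, with 8 higher and 6 lower of 1489 in 5 rows (0.940%). In 1 row with a protein-coding and another non-coding gene 2 members were higher and 3 lower, of 947 tested in that class (0.528%). The 179 tested members of rows without a protein-coding gene gave no call. The 3 unannotated junctions with the most counts all lay in the row of Supt20, a subunit of the SAGA complex. N064 had 777 and 745 counts against 699 and 611, N068 had 483 and 586 against 569 and 634, and N067 had 412 and 429 against 478 and 642. N064 did not pass the test (log2 change -0.28, adjusted p = 0.995), nor did N067 (log2 change 0.36, adjusted p = 0.681).

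Called segments with higher usage lay mostly near the 5′ end of their row. In a merged row this end can belong to another gene than the rest, and segments of the D5Ertd579e and Ubr4 rows were not placed. Of the 31, 20 were in the first quintile of the segments, against 1 of the 29 with lower usage, while 1185 of 7942 tested segments (14.9%) lay there. Without Ep400 the counts were 17 of 28 and 1 of 16. Of the 69 calls 37 were in 9 rows that also fell at the gene level, 19 of them higher and 18 lower. The row of Ep400 held 18 of the 37. In the first quintile of lower merged rows 13 segments were called higher and 1 lower, of 181 tested. In the other merged rows these were 7 and 0 of 1004. In rows that were not merged they were 39 and 15 of 1529 in lower rows and 38 and 3 of 10849 in others. In merged rows lower at the gene level the median usage change of segments was 0.21 in the first quintile and -0.02, -0.10, -0.07 and -0.01 in the following quintiles. In all other merged rows it was 0.07, 0.02, 0.00, -0.02 and -0.02.

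A shift towards the 5′ end was not particular to merged rows. In rows that were not merged the median of the first quintile was 0.10 where the row was lower and 0.08 in the others. The first quintile took 10.5% and 10.9% of the exon counts of lower merged rows in Tdrd6+/- and 12.8% and 13.5% in Tdrd6-/- samples, and without Ep400 9.04% and 9.16% against 10.7% and 11.4%. In lower rows that were not merged it took 14.8% and 14.9% against 15.3% and 15.3%, in the other merged rows 10.8% and 10.4% against 10.9% and 11.2%, and in the other rows that were not merged 10.3% and 10.3% against 10.7% and 10.7% (exact permutation p = 0.33 each). Row by row, both Tdrd6-/- samples were above both Tdrd6+/- samples in 19 of 38 lower merged rows (50%) and in 151 of 631 other merged rows (23.9%), beside 27% of all rows measured. For lower rows that were not merged it was 239 of 483 (49.5%). The opposite order held in 7 of the lower merged rows (18.4%), 73 of the other merged rows (11.6%) and 48 of the lower rows that were not merged (9.94%), beside 10.3% of all rows measured. The summed share was thus higher in both Tdrd6-/- samples in each of the 4 classes of rows, but in the other merged rows the median over rows overlapped between genotypes, at 7.93% and 7.43% against 7.85% and 8.20%. The part of this shift in the calls of single segments was not tested.

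**Figure D4:**
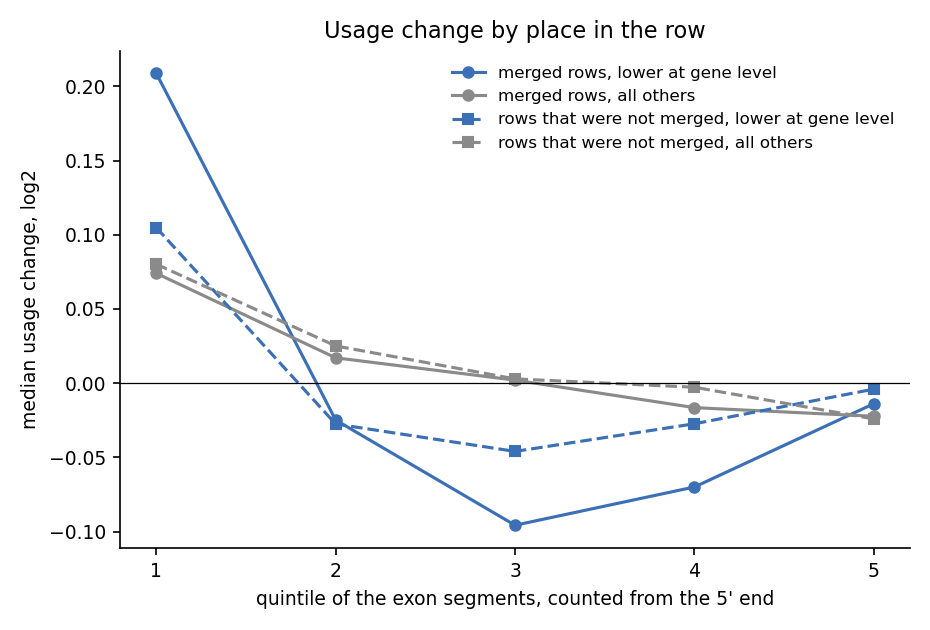
Median usage change (log2, Tdrd6-/- over Tdrd6+/-) of the tested exon segments by quintile of the row from the 5′ end, for merged rows (solid lines) and rows that were not merged (dashed lines), those lower at the gene level in blue and all others in grey. All 4 lines are above 0 in the first quintile, and the lower merged rows are highest there, at 0.21.

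At the gene level 43 of 716 merged rows tested passed FDR 0.1 (6.01%), against 4.8% of the 16555 rows of the whole table. In Tdrd6-/- samples 41 were lower (5.73%, against 3.78% of all rows) and 2 higher (0.279%, against 1.02%), and the median log2 change was 0.01 in merged rows and over all rows. Without Tdrd6-/- replicate 2 most of these calls were lost, those of D5Ertd579e, Ubr4, Spag6, Ep400 and Hnrnpu among them. The log2 change was then -0.58 for D5Ertd579e, -0.59 for Ubr4 and 0.82 for Spag6. In bulk RNA a lower level in every cell and fewer cells that express a gene cannot be told apart. Of the 224 rows not tested, 151 had fewer than 10 counts, 71 of them none.

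Lower rows with the smallest adjusted p were, beside Pcbp2, Ubr4 and D5Ertd579e above, those of Cdc73, Arid2, Nrd1, C530008M17Rik and mt-Nd4. The row of Cdc73, a subunit of the PAF1 elongation complex, and ENSMUSG00000078284 had 102 and 97.2 CPM in Tdrd6+/- and 54.8 and 41.8 CPM in Tdrd6-/- samples (log2 -1.05 ± 0.15, adjusted p = 0.000177, edgeR). That of Arid2, a subunit of the PBAF chromatin remodelling complex, and Gm25397 had 930 and 883 against 514 and 434 CPM (log2 -0.94, adjusted p = 0.000183). The row of Nrd1, an endopeptidase, and Mir761 had 442 and 489 against 264 and 223 CPM (log2 -0.94, adjusted p = 0.000195). That of C530008M17Rik and ENSMUSG00000072855 had 481 and 548 against 258 and 196 CPM (log2 -1.18 ± 0.14, adjusted p = 3.62e-05). By kind, 20 of the 41 lower rows joined a protein-coding and a small RNA gene, of 207 such rows tested. Another 6 joined coding genes, of 250 tested. The rest were 8 of 137 rows with a gene that M21 lacks, 4 of 57 without a protein-coding gene and 3 of 65 with another non-coding gene. Over all rows 3.78% were lower, and a difference between kinds was not tested. The rows of the non-coding RNAs Neat1 and Tug1 had a log2 change of -0.65 and -0.57.

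Both higher rows were of low level. Spag6, a protein of the central pair of the sperm axoneme, joined with a gene that M21 lacks, had 7.98 and 12.5 CPM in Tdrd6+/- and 17.9 and 17.6 CPM in Tdrd6-/- samples (log2 0.79 ± 0.21, adjusted p = 0.0415, edgeR). The row of Tex13c1 had 0.267 and 1.08 against 1.93 and 1.91 CPM (log2 1.49 ± 0.44, adjusted p = 0.0686), and DESeq2 did not call it (adjusted p = 0.188). Neither was called without Tdrd6+/- replicate 1, the lower sample of its genotype in both. There the log2 change was 0.52 for Spag6 (adjusted p = 0.28, edgeR) and 0.84 for Tex13c1 (adjusted p = 0.495), and without replicate 2 it was 2.83 for Tex13c1. The round spermatid markers given above moved in the same direction, and their part in these rows was not tested.

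**Figure D5:**
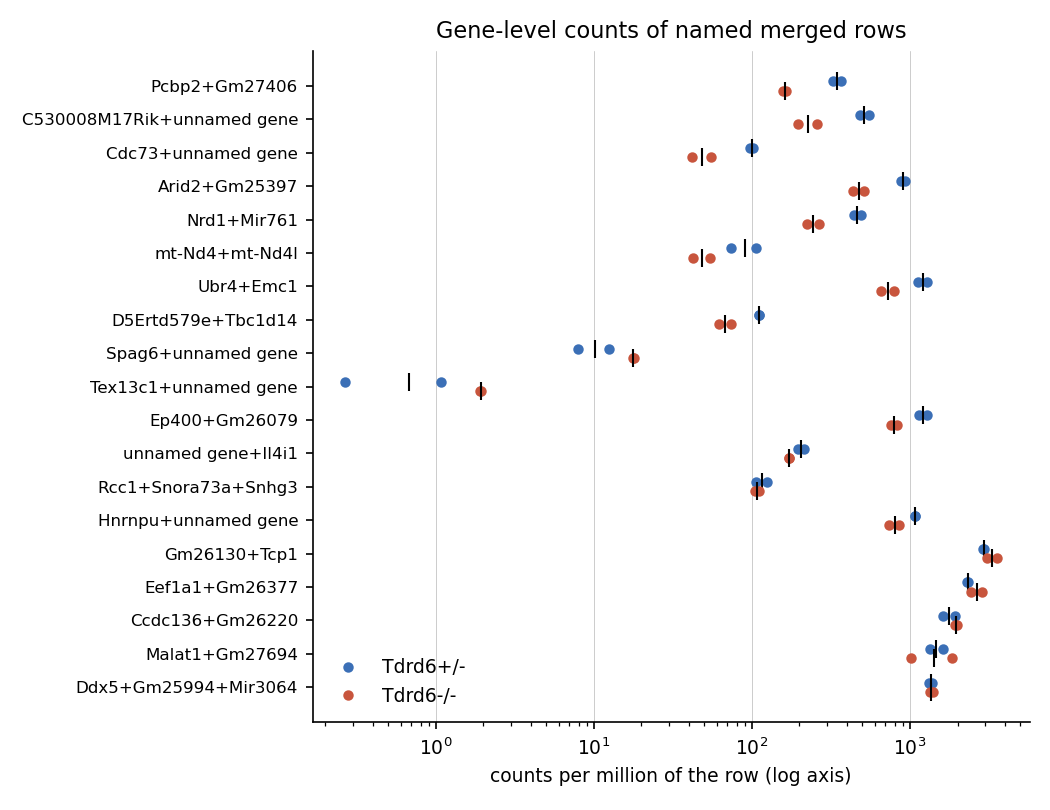
Gene-level CPM (log axis) of named merged rows, with a point for each sample, Tdrd6+/- in blue and Tdrd6-/- in red, and a black tick at each mean. The 8 lower rows at the top and the 2 higher rows under them show no overlap, and the 5 rows of highest level at the bottom were not called. Of the rows between, those of Ep400 and Hnrnpu were also called lower.

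The rows with the most counts did not pass the gene-level test. Tcp1, a subunit of the chaperonin that folds actin and tubulin, led with 2922 ± 37.0 CPM in Tdrd6+/- and 3319 ± 346 CPM in Tdrd6-/- samples (SD, n = 2), followed by Eef1a1, a translation elongation factor, with 2320 ± 35.0 and 2656 ± 307 CPM. Malat1, a nuclear non-coding RNA, differed widely within Tdrd6-/-, at 1472 ± 194 CPM in Tdrd6+/- and 1426 ± 586 CPM in Tdrd6-/- samples. Ccdc136 and the RNA helicase gene Ddx5 were the other 2.

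Of the pathway lists, that of the spliceosome and snRNP assembly matched 8 merged rows. A row was matched when any 1 of its genes was listed, so the values are those of the joined genes. None of the 8 passed the gene-level test, beside 4.8% of all rows, and their median log2 change was 0.05, beside 0.01 over all rows. None of their 180 tested members passed the usage test, beside 0.264% of all features. The row of Coil, the marker protein of Cajal bodies, and 2210409E12Rik had 334 ± 20.4 CPM in Tdrd6+/- and 355 ± 12.6 CPM in Tdrd6-/- samples (SD, n = 2). The row of Gemin4, a component of the SMN complex, joined with Glod4 and Vps53, was not called. That of Ddx39b, an RNA helicase of splicing and export, joined with Gm22589 and Mir8094, likewise was not called. The meiosis list matched 1 row, that of Syce1l and Mon1b, with 54.2 ± 6.06 and 61.1 ± 4.02 CPM (log2 0.17, adjusted p = 0.682, edgeR). The list of spermatid genes matched 2 rows, Spag6 and that of Rasip1 and Izumo1, the latter not called (log2 0.53, adjusted p = 0.384). The row of the Ugt1a cluster, whose members share exons, was not called either, and no merged row held a gene of the piRNA and chromatoid body list.

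Segments of small RNA genes took little of their rows. In placed rows with at least 100 counts, the segment of a miRNA gene held a median of 1.84% of the row (106 genes, 76 of them under 5%). The median was 1.26% for 49 snoRNA genes, 0.770% for 18 genes of the class misc_RNA and 0.353% for 5 snRNA genes. No gene of these classes reached 50%.

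Introns gave a readout that names joined genes singly. Of 2146 joined genes 1325 had introns in the counts and 897 were tested for their intron total, of which 9 passed FDR 0.1 (1.00%, edgeR quasi-likelihood test), against 1.42% of 15025 genes in all. In Tdrd6-/- samples 6 were lower (1.25% of all genes were) and 3 higher (0.173% of all genes were). Junos fell from 53.5 and 59.8 to 29.9 and 26.3 CPM of all intron counts (log2 -1.01 ± 0.22), and Umad1, Gm10125, Magi2, Gria4 and Zfp984 were the other lower genes. Grcc10 rose from 110 and 107 counts to 202 and 221 (log2 1.05 ± 0.27, adjusted p = 0.036), and Gm4149 and Ccdc166 were the other higher genes. With the normalization factors of the gene counts none of the 897 was called by the same edgeR test, in which 74 had an unadjusted p under 0.05, and DESeq2 called 16. That scaling moved the median log2 change of all genes from 0.07 to -0.23. Left-out libraries changed the count as well, to 1 or 6 when replicate 1 or 2 of Tdrd6+/- was dropped, and to 90 or 5 when replicate 1 or 2 of Tdrd6-/- was dropped. Of the 9 called genes none stayed called without Tdrd6+/- replicate 1. For merged rows lower at the gene level, the intron total was read from the 1 joined gene with the highest intron CPM, not from the whole row. This total was lower too in 36 of 38 rows with an intron test, 2 of them called. Its median log2 change was -0.36, beside -0.61 for the rows and 0.15 over all joined genes tested for introns.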

How the data were processed

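Counts were analysed of hCD4+ testis cells from 2 Tdrd6+/- and 2 Tdrd6-/- samples of 20 dpp, each a pool of mice. The authors aligned paired reads to mm10 with GSNAP and annotated them with Ensembl 75 (base calls were converted with bcl2fastq 1.8.4 per the labels). The deposited values are counts, not normalized, per gene row (A000), exon segment, junction and intron, without coordinates. A fragment can count on several segments, so shares of a row can sum to over 100%. The counting program is not given in the sources used here. Positions came from GENCODE M21.

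The members and the lists were chosen with earlier results of these data known. JunctionSeq's model, used by the study, was rebuilt in R 4.3.3 on DESeq2 1.42.0. For every feature of 10 or more counts, a feature by genotype term over its own count and that of its row's remainder was examined by a likelihood ratio test, with independent filtering (here a mean of 58.9 counts) and Benjamini-Hochberg adjustment over all features at FDR 0.1. The dispersion trend ran over the mean of the feature itself, as in DEXSeq. This form replaced a trend over feature and rest after the calls of both had been seen. For rows and intron totals the quasi-likelihood test of edgeR 4.0.16 was used, with TMM factors and filterByExpr. Shares were compared by exact permutation tests. Scripts were tested on simulated data.

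Named were the 8 rows and the 8 features (1 per row) of smallest adjusted p in each direction whose values did not overlap, the 5 rows with most calls, the 5 with most counts, up to 3 rows of each list, the 3 unannotated junctions with most counts and any called, and Tdrd6. Other called members, and genes called by introns, were named after their values were seen. Same-numbered samples did not deviate together (correlation -0.101 over 12347 rows), so the numbers were not taken as pairs. Alternatives were other tests, size factors, filters, thresholds and row counts, the replicate block and leaving out each sample.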

Additional observations from a re-analysis of the deposited data

How the results depend on the processing

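With each library left out in turn, members called ranged from 5 to 111, merged rows called at the gene level from 7 to 57, and joined genes called by their introns from 1 to 90, while the difference in the share of counts on merged rows ranged from -0.226 to -0.050 percentage points. The lone sample left in a genotype was then assumed to vary like the others. For usage, 43 members were called without the independent filter and 6 with a log2 change of at least 1. A dispersion trend over feature and rest of the row, the form fitted first and kept as an alternative chosen after seeing the data, gave 5 (1 higher and 4 lower), shown beside the count above. By edgeR 101 were called, at FDR 0.05 46, with merged rows fitted alone 78 and with the exon segment sum as row count 90. For introns, DESeq2 called 16, the scaling of the gene counts 0, and the replicate block 5. With the replicate block 57 members and 58 rows were called, and the difference in share was -0.138. With crossed replicate numbers, added after seeing the data, the calls were 59 members, 57 rows and 4 intron totals. For 16 members, 10 rows and 9 intron totals the alternatives were also computed one by one, and none changed its sign. Over the fits with a library left out, the calls were kept 34 times and lost 30 times for these members, 35 and 5 times for the rows, and 13 and 23 times for the intron totals. Under the other settings they were kept 161 and lost 13 times, 49 and 1 times, and 23 and 19 times. The causes were not tested. With 2 pools per genotype, the spread between pools limits these counts, and members under the mean count of 58.9 were not tested.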

Other observations

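Mitochondrial transcripts, which encode subunits of the respiratory chain, are joined with neighbouring genes in 5 merged rows. Of these 3 were tested and all 3 were lower in Tdrd6-/- samples, against 3.78% of all rows. All 3 lie on the mitochondrial genome, so they are not independent rows to set against that share. The row of mt-Nd4 and mt-Nd4l, subunits of complex I, had 74.2 and 107 CPM in Tdrd6+/- and 54.0 and 42.3 CPM in Tdrd6-/- samples (log2 change -0.91 ± 0.17, adjusted p = 0.00244, edgeR). That of mt-Nd2 and the tRNA gene mt-Tw had 87.0 and 96.1 against 63.9 and 56.8 CPM (log2 change -0.60 ± 0.14, adjusted p = 0.0158). That of mt-Nd1 and the tRNA gene mt-Ti had 149 and 173 against 122 and 116 CPM (log2 change -0.44 ± 0.13, adjusted p = 0.0771). The rows of mt-Nd2 and mt-Nd1 were singled out after their values were seen, and their calls were lost without Tdrd6-/- replicate 2.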
